A study of Danio rerio with 9 samples.

Results

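Cells make purine and pyrimidine nucleotides from small precursors, and lymphoblasts that divide fast draw on both routes. The purine route builds the ring on activated ribose (PRPP) in a fixed order of reactions to IMP, which is then turned into AMP or GMP. The pyrimidine route builds orotate first, joins it to PRPP to give UMP, and ends with CTP. MYC is known to bind and activate many of these genes in mammalian cells.

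The genes described here are 10 enzymes of these routes, namely ppat, gart, pfas, paics, atic, impdh2 and gmps for purines and cad, umps and ctps1a for pyrimidines. A probe set was taken as a member where the platform annotation gave exactly 1 gene symbol and that symbol was one of the 10. This gave 9 of the 15502 probe sets tested, for 8 of the 8793 genes with a probe set of their own. Only cad had more than 1 probe set, and pfas and gmps had none and were not analysed here.

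The samples were labelled as green fluorescent T-lymphoblasts, sorted by flow cytometry from the bodies of leukaemic zebrafish (T cell acute lymphoblastic leukaemia) with end-stage disease, with 1 array per sample. The 6 hMYC-ER arrays, numbered 1 to 6, came from fish with human MYC joined to an oestrogen receptor domain, and the 3 hlk arrays, numbered 7 to 9, came from a heritable line prone to T cell malignancy. The promoter of the transgene, the hlk allele, the fish age, any inducing agent and any pooling are not stated in the labels. Both groups share the GFP sort, and no healthy T cells are among the arrays, so each difference is one leukaemia model against the other. Whether the arrays came from separate fish is not labelled, so the p-values rest on the spread from array to array, part of which may be technical.

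Of the 25 listed T cell markers 8 were measured, of which 4 fell in hMYC-ER relative to hlk and 0 rose. Over all genes 10.4% rose and 11.6% fell. The 4 that fell were trac, gata3, runx3 and rag1. The rag1 call was close to the threshold (limma p adjusted over genes 0.0475), and its groups overlapped. The other 4 listed genes did not pass, and 3 differences lay above 0, those of rag2 (1.25), tox (0.75) and cd28 (0.28). The listed genes rag1, rag2 and ikzf1 are not particular to T cells and do not tell them from B cells. The defining genes lck, cd4-1 and cd8a had no named probe set. The T cell receptor gene trac averaged 7.01 in hMYC-ER and 11.61 in hlk on the log2 scale, and gata3, a T cell transcription factor, 5.51 in hMYC-ER and 10.21 in hlk. All 8 measured of 20 listed B cell markers were higher in hMYC-ER, while cd79a, cd79b and ighm had no named probe set. Their summed signal ran from 54751 to 68674 in hMYC-ER and from 5304 to 8322 in hlk, and pax5, which commits cells to the B lineage, lay at the floor on 2 of 3 hlk arrays and on 0 of 6 hMYC-ER arrays. The light chain gene igl1c1 averaged 14.04 in hMYC-ER and 6.32 in hlk. The values of trac, gata3 and the called B cell markers go against the T cell label of the hMYC-ER arrays, which are called by their model name here. This shift in lineage markers lies between the same 2 models as every member difference given below, and its part in them was not tested. In bulk samples such as these, fewer cells of a type and less RNA per cell cannot be told apart. The 3' to 5' signal ratio of the gapdhs control, a measure of RNA integrity, was 2.24 to 4.50 in hMYC-ER, against 50.8 on hlk array 7 and at most 2.40 on hlk arrays 8 and 9, and member values without array 7 are given below.

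Values are normalized log2 signals, on which a difference of 1 is a doubling, and each difference is hMYC-ER minus hlk with limma's SE and its 95% interval, which is not adjusted for the number of tests. A call means a limma p adjusted over all 15502 probe sets under 0.05. The 4 member probe sets of ppat, paics, impdh2 and ctps1a rose in hMYC-ER, none fell, and 5 did not pass. Over all probe sets 9.10% rose in hMYC-ER and 9.82% fell, 18.9% in all. In the same 4 member probe sets every hMYC-ER array lay above every hlk array, which held for 9.61% of all probe sets, while 10.9% had every hMYC-ER array below. All 9 member differences lay above 0, with a median of 0.69, where the median over all probe sets was -0.05. When hlk array 7 was left out, 2 member probe sets were called, ppat and ctps1a. The members were chosen with earlier results of these arrays known, so the counts describe them and are no independent evidence of a direction.

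**Figure D1:**
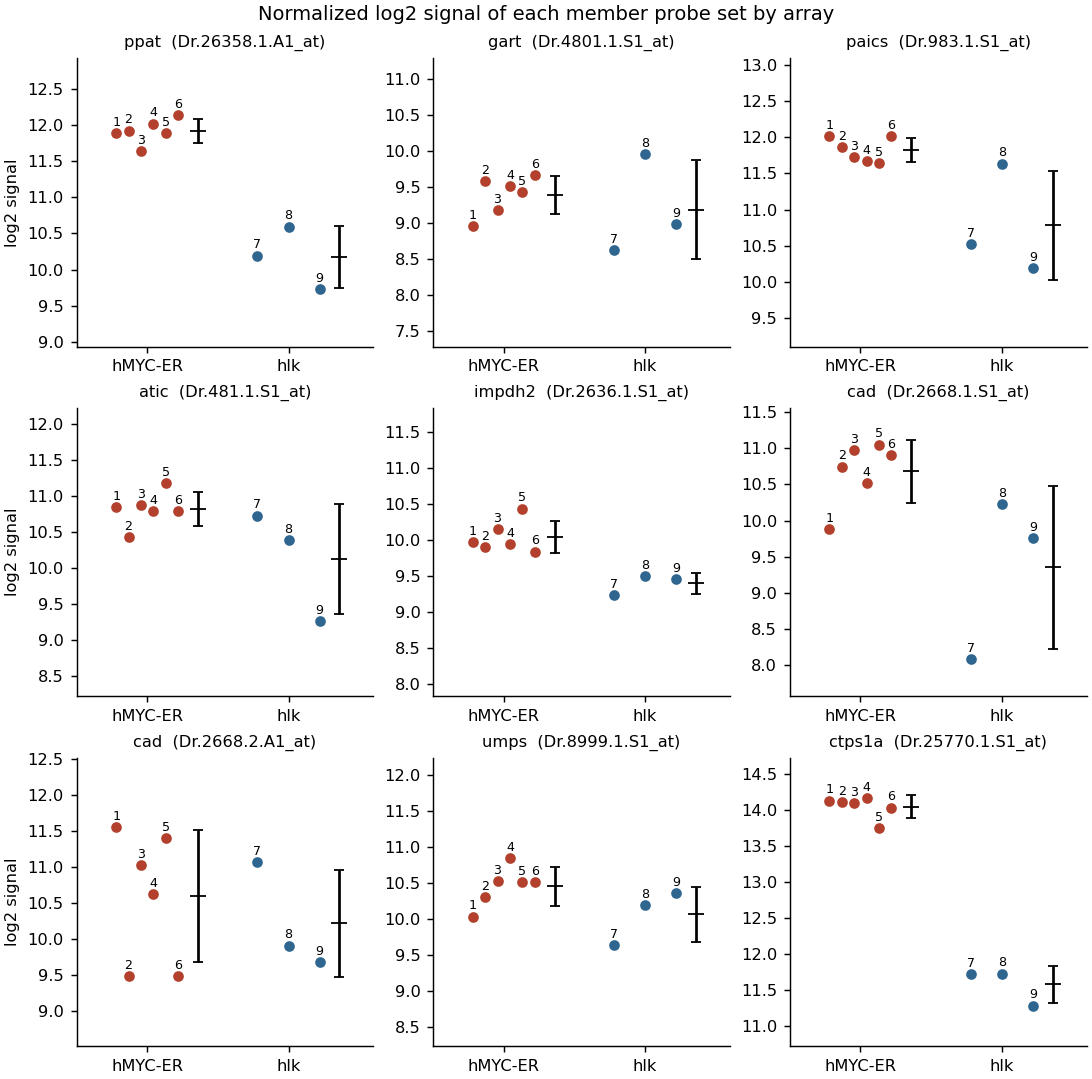
Normalized log2 signal (y axis) of the 9 member probe sets on each array, with hMYC-ER arrays 1 to 6 left of hlk arrays 7 to 9 and the mean ± SD as a bar beside each group. Every panel spans the same range of 4 log2 units, and the groups are apart in ppat, paics, impdh2 and ctps1a.

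The first committed step of purine synthesis is run by the product of ppat (Entrez gene 572027), an amidotransferase that moves the amide of glutamine onto PRPP. The ppat probe set had a lowest, median and highest log2 signal of 11.64, 11.91 and 12.14 in hMYC-ER, against 10.19, 10.59 and 9.73 on hlk arrays 7, 8 and 9. The lowest hMYC-ER array thus lay above the highest hlk array, array 8. Its mean was 11.92 ± 0.16 over the hMYC-ER arrays (SD, n = 6), against 10.17 ± 0.43 over the hlk arrays (SD, n = 3), a 3.36-fold difference of 1.75 on the log2 scale (SE 0.19, 95% interval 1.32 to 2.18, limma adjusted p 4.96e-04). Leaving out each array in turn gave 1.52 to 1.95 with adjusted p of 0.0023 or less. Without hlk array 7 the difference was 1.75 (adjusted p 0.0023).

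The trifunctional gart enzyme (Entrez gene 58141) catalyses several of the middle steps, including the transfer of a formyl group from folate. Its probe set ran from 8.96 over a median of 9.47 to 9.66 in hMYC-ER, against 8.62, 9.95 and 8.98 on hlk arrays 7, 8 and 9. The hlk arrays enclosed all 6 hMYC-ER arrays, with array 8 above and array 7 below them. The difference of 0.20 (SE 0.29, 95% interval -0.46 to 0.87, limma adjusted p 0.693) did not pass. It was -0.079 without hlk array 7 and 0.58 without hlk array 8, so that its sign rested on array 7.

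Further down the route, paics (Entrez gene 321193) encodes a bifunctional carboxylase and ligase. Its probe set had a lowest, median and highest value of 11.65, 11.79 and 12.01 in hMYC-ER, and 10.52, 11.64 and 10.19 on hlk arrays 7, 8 and 9. The groups did not overlap, but hlk array 8 lay only just under the lowest hMYC-ER array, whereas arrays 7 and 9 lay well below. Its mean was 11.82 ± 0.17 over the hMYC-ER arrays (SD, n = 6), against 10.78 ± 0.76 over the hlk arrays (SD, n = 3), which differed by 1.04 (SE 0.29, 95% interval 0.38 to 1.70, limma adjusted p 0.0389). The call of paics was the least firm of the 4. It ended without any 1 of 8 arrays and held only without hlk array 8, where the difference was 1.46 (adjusted p 0.00102). Without hlk array 7 it was 0.91 (adjusted p 0.117), and without hlk array 9 it was 0.74 (adjusted p 0.123). In the GRCz12tu annotation ppat and paics are adjacent genes whose annotated spans overlap, and whether transcripts of one reach the probes of the other was not tested.

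The last steps to IMP are carried out by atic (Entrez gene 140622), a formyltransferase and cyclohydrolase. In hMYC-ER its probe set ran from 10.42 over a median of 10.81 to 11.18, against 10.72, 10.38 and 9.26 on hlk arrays 7, 8 and 9. Of the 6 hMYC-ER arrays 5 lay above the highest hlk array, and hlk array 9 stood far below every other array. The difference of 0.69 (SE 0.31, 95% interval -0.01 to 1.40, limma adjusted p 0.166) did not pass. It was 0.26 without hlk array 9 (adjusted p 0.424) and 0.99 without hlk array 7 (adjusted p 0.0622). The annotated span of atic overlaps that of its neighbour fn1b, and whether fn1b transcripts reach the atic probes was not tested.

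IMP dehydrogenase, the product of impdh2 (Entrez gene 317745), opens the branch to GMP and limits the rate of guanine nucleotide synthesis. Its probe set lay between 9.84 and 10.43 in hMYC-ER, with a median of 9.96, and at 9.23, 9.50 and 9.46 on hlk arrays 7, 8 and 9. The groups were apart, with hMYC-ER array 5 the highest and the hlk arrays close to each other. Its mean was 10.04 ± 0.22 over the hMYC-ER arrays (SD, n = 6), against 9.40 ± 0.14 over the hlk arrays (SD, n = 3), a 1.56-fold difference of 0.64 (SE 0.15, 95% interval 0.31 to 0.98, limma adjusted p 0.0177). Without hlk array 7 the difference was 0.56 with an adjusted p of 0.0552, just over the threshold.

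The multifunctional cad protein (Entrez gene 266992) starts pyrimidine synthesis, joining the carbamoyl phosphate synthetase, aspartate transcarbamylase and dihydroorotase activities in 1 chain. Its 2 probe sets are called S1 and A1 here, after the endings of their names. The S1 probe set ran from 9.88 over a median of 10.83 to 11.05 in hMYC-ER, against 8.07, 10.22 and 9.75 on hlk arrays 7, 8 and 9. The A1 probe set ran from 9.48 over a median of 10.82 to 11.55 in hMYC-ER, against 11.06, 9.91 and 9.68 on the same hlk arrays. Array 7 was thus the lowest of all 9 arrays by S1 and among the higher ones by A1.

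Neither cad probe set passed. The difference was 1.33 for S1 (SE 0.47, 95% interval 0.26 to 2.41, limma adjusted p 0.0880) and 0.38 for A1 (SE 0.57, 95% interval -0.94 to 1.70, limma adjusted p 0.709). Of the 6 hMYC-ER arrays 5 lay above the highest hlk array by S1 and 2 by A1. Leaving out hlk array 7 brought the 2 probe sets close together, at 0.69 for S1 (adjusted p 0.197) and 0.80 for A1 (adjusted p 0.460). Without hlk array 8 the S1 difference was 1.77 and passed (adjusted p 0.0465). With all arrays it also passed when limma used a trended robust prior (adjusted p 0.0481).

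The gap between the cad probe sets, A1 minus S1 on the log2 scale, followed the gapdhs 3' to 5' ratio from array to array. It was 1.67 on hMYC-ER array 1, whose ratio of 4.50 was the highest in that model, and 2.99 on hlk array 7, whose ratio was 50.8. On hMYC-ER arrays 2 to 6 it ran from -1.42 to 0.35, and it was -0.32 on hlk array 8 and -0.08 on hlk array 9. Over the 9 arrays Pearson's r between the gap and the log2 ratio was 0.855 (exact permutation p 3.91e-04, two-sided) and Spearman's rho was 0.933 (exact permutation p 7.5e-04). Without the 2 arrays with the most extreme ratios, hMYC-ER array 1 and hlk array 7, r was lower, at 0.684 (exact permutation p 0.0563). Spearman's rho was then 0.857 (exact permutation p 0.0238). Within the 6 hMYC-ER arrays, array 1 included, r was 0.892 (exact permutation p 0.00556) and rho 0.943 (exact permutation p 0.0167), and 3 hlk arrays are too few for a value. This was the 1 relation computed, with each coefficient and set of arrays given above. It was chosen after its values were seen, so its p-values describe it and are no independent evidence. The part of RNA integrity in the cad differences was not tested.

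**Figure D2:**
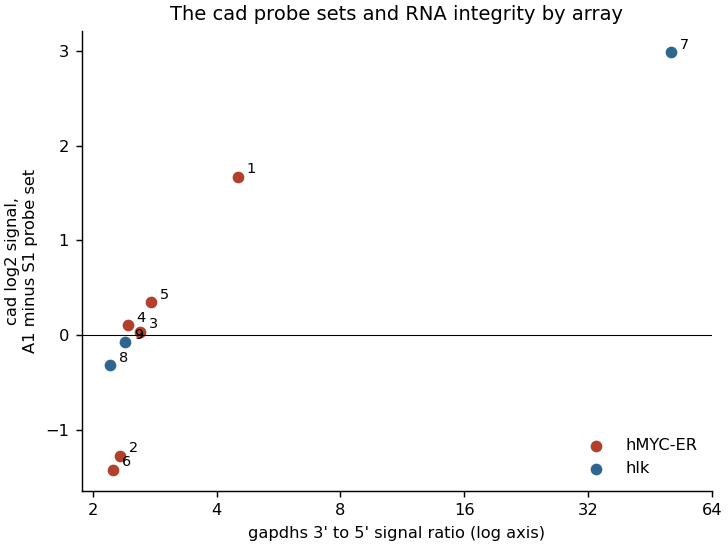
Difference in log2 signal between the 2 cad probe sets, A1 minus S1 (y axis), against the gapdhs 3' to 5' signal ratio on a log axis (x axis), with 1 numbered point per array. hMYC-ER array 1 and hlk array 7 have the highest ratios, 4.50 and 50.8, and the largest gaps, 1.67 and 2.99.

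UMP synthase, the product of umps (Entrez gene 393143), joins orotate to PRPP and removes its carboxyl group. The umps probe set ran from 10.03 over a median of 10.51 to 10.84 in hMYC-ER, and stood at 9.63, 10.19 and 10.36 on hlk arrays 7, 8 and 9. The groups overlapped, with 4 of 6 hMYC-ER arrays above the highest hlk array. The difference of 0.39 (SE 0.21, 95% interval -0.09 to 0.87, limma adjusted p 0.249) did not pass and was 0.18 without hlk array 7. The interval of umps excluded a doubling.

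CTP synthase, the product of ctps1a (Entrez gene 322089), aminates UTP to CTP with the amide of glutamine, and in humans the related enzyme CTPS1 is needed for the expansion of activated lymphocytes. This gene differed most among the members. The ctps1a probe set had a lowest, median and highest value of 13.74, 14.10 and 14.16 in hMYC-ER, against 11.72, 11.73 and 11.28 on hlk arrays 7, 8 and 9. Every hMYC-ER array stood more than 2 log2 units above every hlk array. As deposited, the signal ran from 13876 to 19485 in hMYC-ER and from 2559 to 3494 in hlk. The difference of 2.47 (SE 0.14, 95% interval 2.15 to 2.78) was 5.53-fold, with a limma adjusted p of 1.60e-05, rank 77 of 15502 by p. It ran from 2.34 to 2.57 with each array left out in turn, and was 2.57 without hlk array 7.

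**Figure D3:**
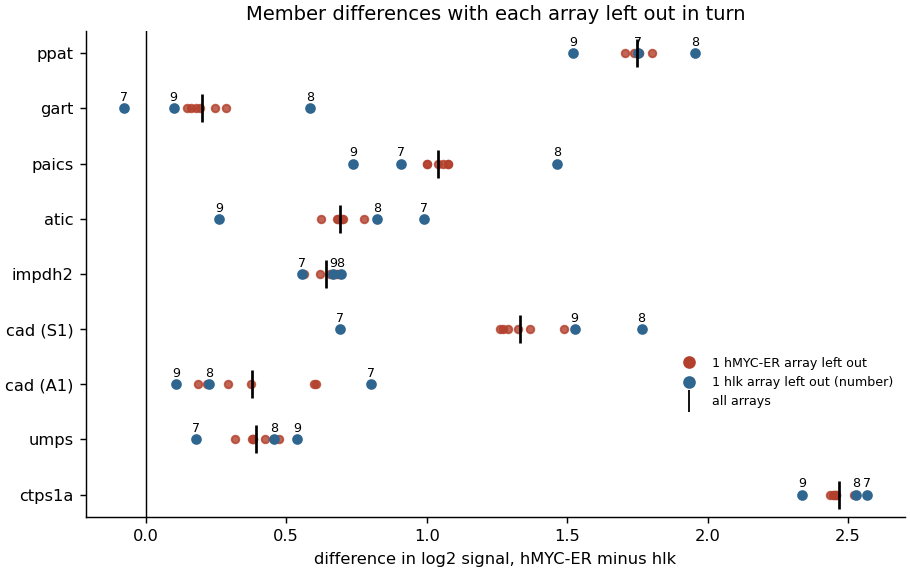
Difference in log2 signal, hMYC-ER minus hlk (x axis), for each member probe set (rows) with all arrays (black tick), with 1 hMYC-ER array left out (red) and with 1 hlk array left out (blue, numbered). For ctps1a and ppat all points lie between 2.34 and 2.57 and between 1.52 and 1.95, whereas for gart and atic single hlk arrays moved the difference to -0.079 and 0.26.

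In the hlk arrays the members did not all vary together. Array 8 was the highest hlk array for 6 of 9 member probe sets, array 7 for 2 and array 9 for 1. Array 9 was the lowest for 5 and array 7 for 4. The SD over the 3 hlk arrays was 0.76 for paics, 0.77 for atic, 0.69 for gart and 1.13 for the S1 probe set of cad, but 0.14 for impdh2 and 0.25 for ctps1a. Over the 6 hMYC-ER arrays it was 0.15 to 0.44 for 8 of the member probe sets and 0.92 for the A1 probe set of cad.

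The other genes of de novo synthesis were taken from a list of 16, of which 8 were measured. All 8 encode enzymes except prpsap2, which encodes a protein associated with PRPP synthetase. They are given at the level of genes, with the brightest probe set standing for each and limma p adjusted over 8793 genes. Of these 4 rose in hMYC-ER, 0 fell and 4 did not pass, where 10.4% of all genes rose and 11.6% fell, 22.0% in all. Together with the members, 8 of 16 measured genes rose in hMYC-ER, 0 fell, and 15 differences lay above 0, with a median of 0.67 against -0.08 over all genes. In gene counts and medians the A1 probe set stands for cad, with a difference of 0.38 where S1 gave 1.33. The count of 4 was reached again whichever single array was left out. In the 4 called genes every hMYC-ER array lay above every hlk array, as in 10.7% of all genes.

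Adenylosuccinate lyase, the product of adsl, acts between paics and atic and again on the way to AMP. It ran from 11.50 to 11.86 in hMYC-ER, against 10.78, 9.90 and 9.72 on hlk arrays 7, 8 and 9, a difference of 1.51 (SE 0.22, limma adjusted p 0.0019). All 6 hMYC-ER arrays were above the 3 hlk arrays.

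PRPP synthetase makes the activated ribose that both routes use. Its catalytic subunit gene prps1b ran from 8.79 to 9.53 in hMYC-ER, against 8.06, 8.20 and 8.52 in hlk, and rose by 0.95 (SE 0.19, limma adjusted p 0.00801). The associated protein gene prpsap2 ran from 11.42 to 11.71 in hMYC-ER, against 10.96, 10.73 and 10.56 in hlk, and rose by 0.87 (SE 0.12, limma adjusted p 0.00127). The paralogue prps1a differed by 0.08 (95% interval -0.18 to 0.34, limma adjusted p 0.675), which excludes a change the size of that of prps1b.

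The mitochondrial enzyme dihydroorotate dehydrogenase, encoded by dhodh, links cad and umps. It ran from 9.57 to 10.15 in hMYC-ER, against 9.41, 9.11 and 8.88 in hlk, and rose by 0.84 (SE 0.16, limma adjusted p 0.00803). The adenylosuccinate synthase genes adss1 (0.29, limma adjusted p 0.679) and adssl (0.30, limma adjusted p 0.659), which open the branch to AMP, did not pass. Nor did impdh1b, a paralogue of impdh2, at -0.20 (95% interval -0.74 to 0.35, limma adjusted p 0.611). A dimmer probe set of impdh1b gave 0.59 (adjusted p 0.456).

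**Figure D4:**
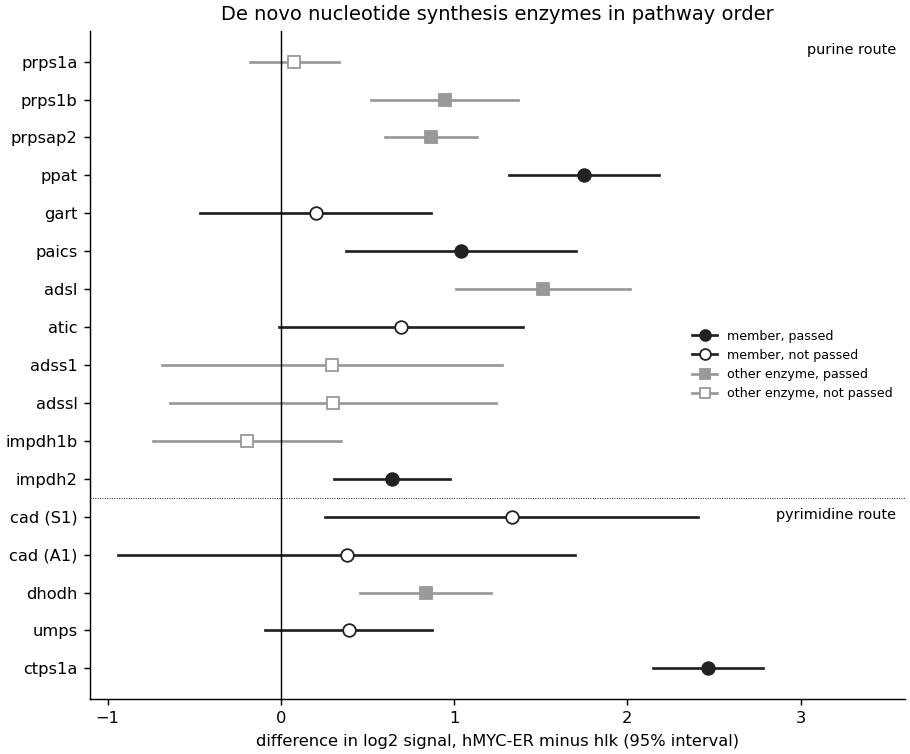
Difference in log2 signal, hMYC-ER minus hlk, with its 95% interval (x axis) for 9 member probe sets (black circles) and 8 other de novo genes (grey squares). Rows run from the start of each route downwards, with PRPP synthetase genes, which serve both routes, at the top. Filled symbols passed the adjusted threshold, and ctps1a (2.47), ppat (1.75) and adsl (1.51) lie farthest to the right among them.

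Salvage enzymes return free bases and nucleosides to the nucleotide pool. Of 14 measured of 23 listed, 3 rose in hMYC-ER, 1 fell and 10 did not pass, with a median of 0.21. Over all genes 10.4% rose and 11.6% fell, 22.0% in all. The adenosine kinase gene adkb rose by 0.78 (SE 0.18, limma adjusted p 0.0169). The uridine kinase-like gene uckl1b rose by 0.73 (SE 0.16, limma adjusted p 0.0138), and uprt, named for uracil phosphoribosyltransferase, rose by 0.53 (SE 0.11, limma adjusted p 0.0128).

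The uridine-cytidine kinase gene uck2a went the other way, running from 11.02 to 12.24 in hMYC-ER, against 13.38, 13.16 and 13.32 in hlk. It fell by 1.67 on the log2 scale (SE 0.23, limma adjusted p 0.00152), with every hMYC-ER array below every hlk array, as in 12.5% of all genes. Its paralogue uck2b differed by 0.23 (95% interval -0.07 to 0.53, limma adjusted p 0.259). A test of the difference between these paralogues was not run.

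Kinases carry nucleotides to the di- and triphosphate level. Of 14 measured, 0 rose in hMYC-ER, 2 fell and 12 did not pass, with a median of -0.34, where 10.4% of all genes rose and 11.6% fell. An unadjusted limma p under 0.05 was found for 6 of the 14, the 2 called genes among them, and these did not all go the same way. The adenylate kinase gene ak1 had the largest difference of the list and lay above 0 (2.74, SE 0.94, limma adjusted p 0.0738). Its hlk values were 8.55 on array 7 and at the floor on arrays 8 and 9. The counts turned on the settings, since 1 kinase rose without hlk array 7, with array weights, without the dimmest probe sets and with a trended robust prior. The nucleoside diphosphate kinase genes nme3 and nme2b.2 fell by 1.26 (SE 0.23, limma adjusted p 0.00619) and by 1.24 (SE 0.30, limma adjusted p 0.0194).

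Among 6 measured enzymes of deoxynucleotide supply and clean-up, 0 rose in hMYC-ER and 1 fell, with a median of -0.80. Over all genes 10.4% rose and 11.6% fell. The largest difference, that of rrm2b (-1.81, SE 0.89, limma adjusted p 0.194), did not pass. Its hlk values were 5.86, 10.42 and 9.97 on arrays 7, 8 and 9. The call was nudt1, which clears oxidised purine nucleotides and fell by 1.34 (SE 0.21, limma adjusted p 0.00275). The ribonucleotide reductase gene rrm1 differed by -0.93 (SE 0.43, limma adjusted p 0.168) and the thymidylate synthase gene tyms by -0.68 (SE 0.58, limma adjusted p 0.458), and neither passed.

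For nucleotide breakdown, 0 of 14 measured genes of 35 listed passed, where 22.0% of all genes did. An unadjusted limma p under 0.05 was found for 1, and the median was -0.13. The count and median include uroc1 (-0.17, limma adjusted p 0.687), which was listed here but is not a nucleotide breakdown gene. The smallest p belonged to the ecto-nucleotidase gene nt5e (-1.44, limma adjusted p 0.0858), which lay at the floor on 2 hMYC-ER arrays, and to the nucleotidase gene nt5c3a (-0.47, limma adjusted p 0.177). Of 17 measured proliferation markers 0 passed, and 0 had an unadjusted limma p under 0.05. Their median difference was -0.0024, and their summed signal ran from 20511 to 47783 in hMYC-ER and from 27822 to 52014 in hlk. On the same arrays ppat and ctps1a were higher in hMYC-ER. A lack of calls among the proliferation markers does not show equal proliferation. The part of proliferation in the member differences was not tested.

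**Figure D5:**
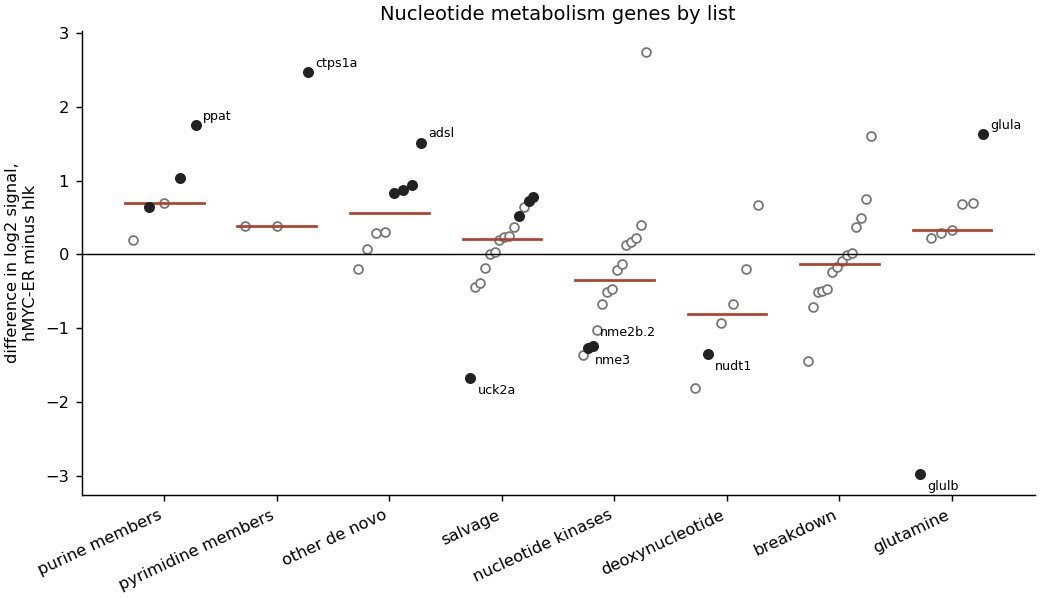
Difference in log2 signal, hMYC-ER minus hlk (y axis), of each measured gene in 8 lists of nucleotide metabolism (x axis), with called genes filled, other genes open and the list median as a red line. The 2 member lists and the other de novo list lie mostly above 0, with medians of 0.69, 0.39 and 0.57, and the deoxynucleotide list mostly below, with a median of -0.80. The A1 probe set (0.38) stands for cad, where S1 gave 1.33.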

How the data were processed

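Biotin-labelled cRNA was made from 100 ng of total RNA by the Affymetrix procedure, per the labels' protocols. The values are deposited intensities on a linear scale, with 1 for each probe set on each array. Trimmed by 2% at both ends, their mean was 500.1 or 500.2 on all arrays, so they came scaled. The sources used here do not name the signal algorithm.

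The medians of the arrays spanned 0.31 on the log2 scale, over the limit of 0.1 chosen for leaving them as deposited. Therefore all 15617 probe sets were quantile normalized, floored at a signal of 16 (4 on the log2 scale) and put on the log2 scale. No member lay at the floor. The 115 control probe sets were left out of the tests. Gene symbols came from the platform annotation, updated through Entrez numbers from the GRCz12tu gene table, which changed 1 symbol. Of 15502 probe sets 10795 had 1 symbol, 135 several and 4572 none. Coordinates are left out because the files name no build.

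The 6 hMYC-ER and 3 hlk arrays were compared with limma 3.58.1 (lmFit, eBayes) in R 4.3.3. P-values were adjusted by the Benjamini-Hochberg method, over all probe sets for members and over all genes for lists. No batch is labelled, so no covariate was used. The exact permutation test of the members was also run in R. Those of the cad correlations were run in Python 3.11.15, in part with scipy 1.17.1, and figures used matplotlib 3.10.9. The fit was also run on simulated data with independent noise, which cannot show how far the calls on these arrays hold. Precision is limited by the number of arrays.

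Members and lists were chosen with earlier results of these data known. Named were all members, every other listed pathway gene that passed, the 2 smallest p where none passed, and, after their values were seen, the further paralogues and enzymes given as not passing. Alternatives were median centring, unnormalized signals, other floors, a dim filter, a trended robust prior, array weights, a 2-fold minimum, probe set means, an exact permutation test and leaving out each array.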

Additional observations from a re-analysis of the deposited data

Results flagged for a closer look

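The ctps1a signal on hMYC-ER array 5 was 13.74 on the log2 scale, set apart below the other 5 arrays of that model, of which the next lowest was 14.03. The gap made up 0.679 of the range of the 6 arrays. It was the only such case among the 9 member probe sets in hMYC-ER, and chance gives about 1 in 20 groups. The 3 hlk arrays were too few for this check and were not examined. On the same array ctps1a was still far above the highest hlk value of 11.73. Without this array the difference of ctps1a was 2.52, against 2.47 with all arrays.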

How the results depend on the processing

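The calls of ppat and ctps1a were kept in all 17 alternatives that gave an adjusted p, and those of paics and impdh2 ended in 12 and 5 of the 17. The number of called member probe sets, 4, was 2 with arrays centred on their medians, with a floor at 1 and with array weights. It was 3 with a floor at 64 and with a 2-fold minimum. It was 5 with a trended robust prior, where the S1 probe set of cad passed, and ran from 2 to 5 with single arrays left out. It was 2 when hlk array 7 was omitted and 5 when array 8 was, and lay below 4 in 8 of those 9 fits. The number of called member genes, 4, was 2 with array weights, and 3 with median centring and with a 2-fold minimum. It ran from 3 to 4 with single arrays left out, at 3 in 8 of the 9 fits and at 4 without hlk array 8 only. Under a 2-fold minimum, called genes were 1 in place of 4 for the other de novo enzymes, and that 1 rose. Salvage also gave 1 in place of 4, with 0 rises and 1 fall. Without hlk array 9, salvage stayed at 4, with 2 rises and 2 falls. The kinases gave 5 in place of 2 (1 rose and 4 fell) without the dimmest probe sets and with a trended robust prior. Called genes were 2 in place of 1 for deoxynucleotides with array weights and 1 in place of 0 for breakdown with median centring. The glutamine genes gave 1 in place of 2 with a floor at 64, where glula was lost. Left-out arrays gave 1 to 2 for deoxynucleotides (2 without hlk array 7) and 0 to 1 for breakdown (1 without hlk array 7 or 9). For gart the difference ran from -0.079 (without hlk array 7) to 0.58. The cause was not tested.

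Median centring put the median of all genes at -0.18 in place of -0.08, and member differences are read against that shift. With it, paics was 0.90 (adjusted p 0.0525) and impdh2 0.56 (adjusted p 0.0556). The exact permutation test over 84 splits gives no adjusted p, and ppat, paics, impdh2 and ctps1a had its smallest p, 0.0119. By it atic and the S1 probe set of cad had an unadjusted p of 0.0238, and gart, umps and the A1 probe set of cad were at 0.512, 0.119 and 0.548.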

Other observations

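Several synthesis enzymes, among them those of ppat, ctps1a and cad, take nitrogen from glutamine, so genes of glutamine supply and use were also listed. Of 20 listed 7 were measured, of which 1 rose in hMYC-ER, 1 fell and 5 did not pass. Over all genes 10.4% rose and 11.6% fell, 22.0% in all. Both calls were glutamine synthetase paralogues, in opposite directions. The gene glula ran from 5.36 to 6.58 in hMYC-ER, against 4.75, 4.00 and 4.54 on hlk arrays 7, 8 and 9, with array 8 at the floor, and rose by 1.62 (SE 0.26, limma adjusted p 0.00326). Its values lay near the floor of 4, so the size of the difference depends on it, and with the floor at a signal of 64 the call of glula ended. The gene glulb ran from 6.47 to 8.33 in hMYC-ER, against 10.56, 10.17 and 9.78 in hlk, and fell by 2.97 (SE 0.38, limma adjusted p 0.00103). A dimmer glulb probe set lay in the same direction (-1.80, limma p adjusted over all probe sets 0.0154). The asparagine synthetase gene asns, which also uses glutamine, differed by 0.33 (limma adjusted p 0.259). A dimmer asns probe set gave 0.52 (limma p adjusted over all probe sets 0.298).

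Of the 4 probe sets of the mitochondrial thymidine kinase gene tk2, the brightest gave 0.03 (limma adjusted p 0.960) and a further one -0.64 (limma adjusted p 0.0100). The others gave -0.30 (limma adjusted p 0.316) and -0.33 (limma adjusted p 0.204) and did not pass. Each p was adjusted over all probe sets. The genes asns and tk2 were picked for mention after their values were seen.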
